A study of Mus musculus with 6 samples.

Results

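Rab GTPases are the largest branch of the Ras superfamily of small GTP-binding proteins. Here they were taken as all gene symbols made of Rab, a number and at most 1 letter from a to d, the symbol being the transcript name without its isoform number. This rule found 59 Rab genes among 53354 gene symbols, with 238 of the 133944 annotated isoforms. Rab-like genes, Rab effectors and Rab pseudogenes are outside it. The data were RNA-seq libraries of hippocampus from 3 N-cre and 3 N-cre;Fox1 mice at an age of 3 months, with 1 library per mouse. N-cre mice carry the Nes-cre transgene alone and served as controls. N-cre;Fox1 mice carry Nes-cre and, in addition, an Rbfox1 cDNA placed behind a CAG promoter and a loxP-flanked STOP cassette in Gt(ROSA)26Sor, so that Nes-cre switches on Rbfox1, an RNA-binding protein that regulates splicing. The transgene was made in 129/sv embryonic stem cells, and the line was then backcrossed to C57BL/6J, the background of the mice sequenced. In a LacZ reporter cross of the study, Nes-cre was active in granule and pyramidal neurons of the hippocampus.

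A Rab protein cycles between an active form that binds GTP and an inactive form that binds GDP. Guanine nucleotide exchange factors (GEFs) activate it, GTPase-activating proteins (GAPs) inactivate it, a lipid anchor added by geranylgeranyl transferase holds it on the membrane, and GDP dissociation inhibitors extract it. Each active Rab recruits its own effectors (tethers, motors and adaptors), and in this way Rabs mark and connect the compartments of a cell. In neurons the Rab3 proteins sit on synaptic vesicles, Rab5 proteins on early endosomes, Rab11 proteins on the recycling endosomes that return receptors to the dendritic membrane, and Rab7 on late endosomes and on the carriers that bring signalling neurotrophin receptors back to the cell body.

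The summed expected counts of a library were 40463587 to 62141336 in N-cre against 54352011 to 59362399 in N-cre;Fox1 mice, and Rab genes took 0.532% to 0.554% of them. Counts of Rbfox1, which the transgene expresses, did not separate the genotypes (14456 to 15286 normalized counts in N-cre against 13571 to 15939 in N-cre;Fox1 mice). The study itself reports a modest increase of Rbfox1 mRNA in N-cre;Fox1 hippocampi, with data not shown, and more Rbfox1 protein by immunoblot. A normalized count is a count scaled to the mean library size with edgeR's TMM method. In 2 libraries the summed count of 5 choroid plexus markers was 117602 (N-cre 3) and 264390 (N-cre;Fox1 2), against 1387 to 1852 in the others. The summed count of 6 astrocyte markers was 175039 to 183267 in N-cre against 187178 to 204972 in N-cre;Fox1 mice, so that the genotypes did not overlap. Of these 6 markers, 3 (Gfap, Aqp4 and Slc1a2) were higher in N-cre;Fox1 mice at an unadjusted p under 0.05 (edgeR), against 3.59% of all genes. The other 3 had log2 fold changes below 0 (-0.02 for Slc1a3, -0.14 for Aldh1l1 and -0.04 for Gjb6) and overlapped, and Slc1a2 alone gave 105767 to 120804 of the sum. The 8 markers of hippocampal neurons were present in every mouse and summed to 239122 to 276786, most of it from Camk2a. Of these 8, 2 were higher at such a p, as were 2 of 8 neuronal activity and 1 of 6 oligodendrocyte markers. Of 6 thalamus and striatum markers 2 were lower, against 2.6% of all genes. In such bulk tissue fewer cells of a type and less RNA per cell cannot be told apart.

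Rbfox1 acts on splicing, so sites where the isoforms of 3 Rab genes divide are shown before the values. They were read from GENCODE transcripts on GRCm38 (mm10), 5′ to 3′ in the direction of the gene, as 30 bases across a splice junction. Lower case is the end of the exon that all forms share, and capitals are the start of the exon joined to it. In Rab11a, exon 4 of the 5 exons of the main isoform (chr9:64725502-64725582, minus strand, 81 bases, coding) is either kept or skipped.
Rab11a, exon 4 kept: caagagcttttgcagAGAAGAATGGTTTGT
Rab11a, exon 4 skipped: caagagcttttgcagAGATATACCGCATTG
In Rab28, an exon of 95 bases (chr5:41626987-41627081, minus strand), exon 7 of the 8 exons of the isoform that holds it, is left out of the main isoform.
Rab28, exon 7 skipped: atagaacagtcacagAGAGTGGTGAAGGCA
Rab28, exon 7 kept: atagaacagtcacagCGTATTGTCAGGGCA
In Rab6a, 2 neighbouring exons of 106 bases each (chr7:100629666-100629771 and chr7:100629838-100629943, plus strand) are used in place of each other, and 76 of their 106 bases are identical. The first 30 bases of each are given, with the 11 bases that differ in capitals.
Rab6a, upstream exon: AtCAgGCtgcaGCtGtgggaTacTgcGggt
Rab6a, downstream exon: GtGCgATtgcaATtAtgggaCacAgcAggt

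The hippocampus contained nearly the whole family, at levels that span several orders of magnitude. Levels are compared between genes as TPM, a unit scaled for the annotated length of each isoform and for the size of the library. Of the 59 genes, 15 had a mean level above 100 TPM, 29 between 10 and 100, 11 between 1 and 10 and 4 below 1. The 10 highest genes held 60.4% ± 0.45 (SD, n = 6 mice) of the summed Rab level. Rab3a, which acts in synaptic vesicle release, was the most abundant Rab in both genotypes, at 755 ± 16.5 TPM (SD, n = 3) in N-cre and 747 ± 30.9 TPM (SD, n = 3) in N-cre;Fox1 mice. Rab6b, a neuronal Golgi Rab, followed at 424 ± 15.6 TPM in N-cre mice. After it came Rab6a (342 ± 10.1), which acts in retrograde traffic to and through the Golgi, and Rab7 (324 ± 4.0). The smallest of these steps, from Rab6a to Rab7, was 338 ± 11.6 to 318 ± 5.42 TPM in N-cre;Fox1 mice.

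Among the 9 Rabs of early endosomes Rab5c led, at 136 ± 2.63 TPM in N-cre and 134 ± 1.81 TPM in N-cre;Fox1 mice, just above Rab5b (129 and 130 TPM). Among the 11 Rabs of recycling and delivery to the plasma membrane, Rab11b led with 229 ± 3.09 and 226 ± 6.13 TPM. Its close relative Rab11a reached 103 ± 2.31 TPM in N-cre and 112 ± 3.74 TPM in N-cre;Fox1 mice. Of this, the short isoform Rab11a-201, whose annotated model is incomplete, gave 5.86 and 14.5 TPM, and the counts of the gene overlapped between the genotypes. Rab28 was the higher of the 2 Rabs grouped here under cilium and Hedgehog signalling (75.4 ± 2.68 and 72.7 ± 1.11 TPM). Rabs with a part in cilia can stand in other groups, as Rab34 does under the endoplasmic reticulum and Golgi. Rab40c was the highest of 4 genes given no role here (51.2 ± 1.43 and 52.6 ± 1.64 TPM). On the TPM scale the exocytic Rabs other than Rab3a lay far below it. In normalized counts, which are not scaled for length, Rab3c was nearer to Rab3a (means over all mice of 18210 and 23385). Mean levels over all mice were 97.0 TPM for Rab3c, 67.1 for Rab3b, 12.6 for Rab27b, 11.6 for Rab3d and 8.26 for Rab27a. The Rab27 proteins act on secretory granules and exosomes. The 4 genes below 1 TPM, which were also too low for a test, were Rab17, Rab19, Rab25 and Rab44. Rab17 and Rab25 are known from epithelia.

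**Figure D1:**
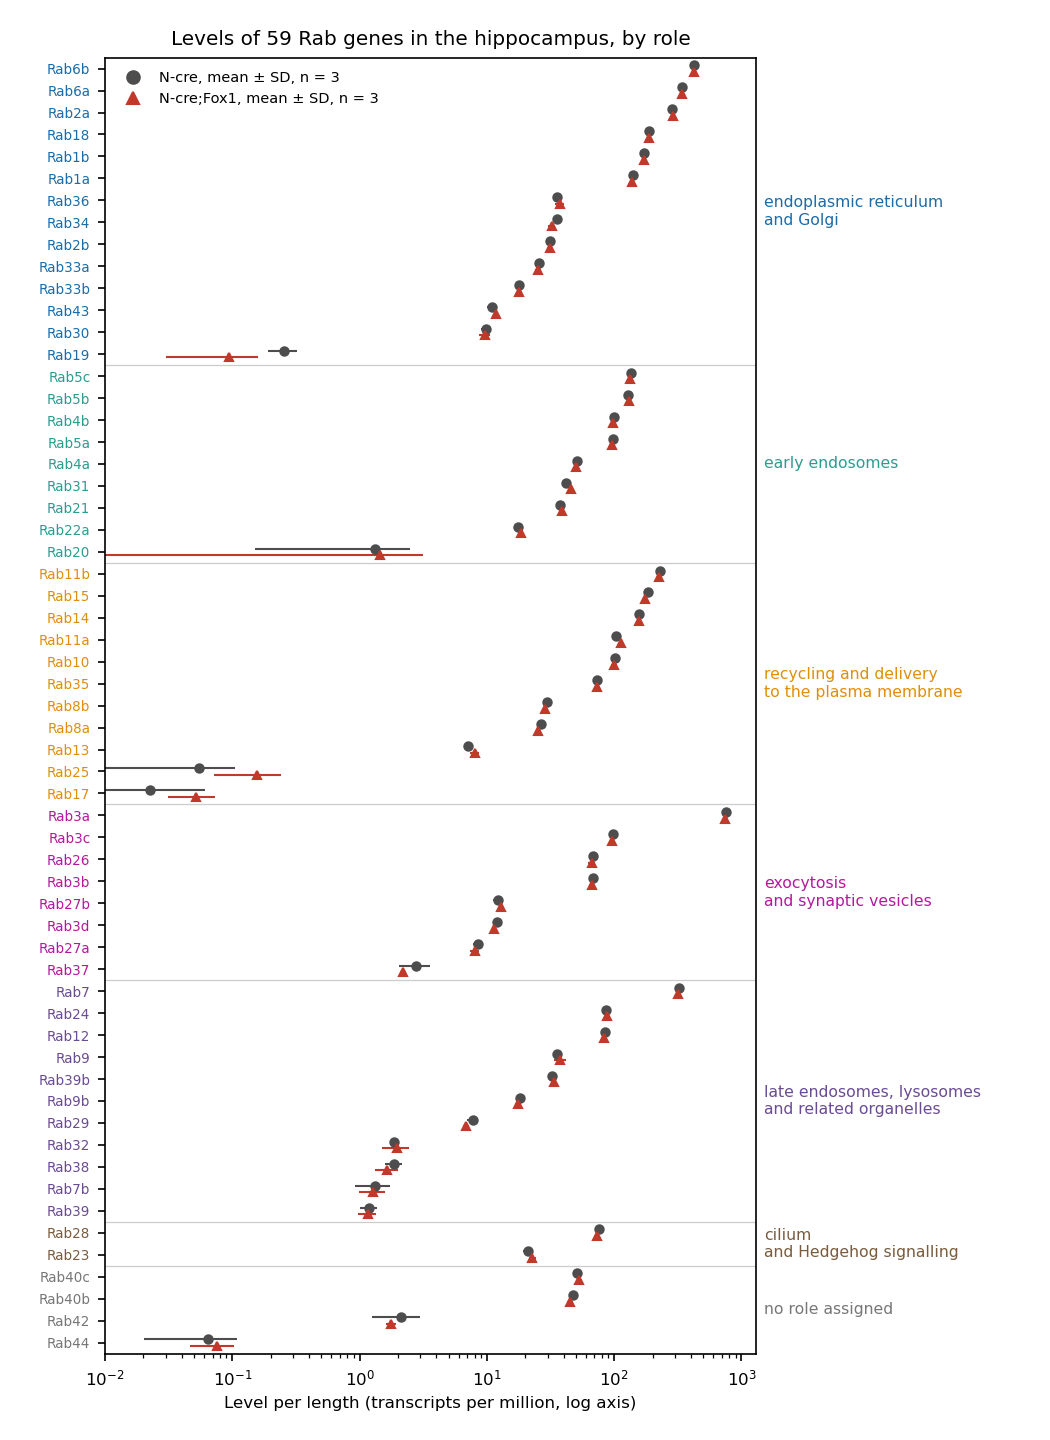
Mean level per length (TPM, log axis) of the 59 Rab genes, grouped and coloured by role and ordered by level within a role, for N-cre (circles) and N-cre;Fox1 mice (triangles), with bars for 1 SD over 3 mice per genotype; bars that would reach below the axis end at its edge. Rab3a is the highest and Rab17 the lowest, and the circle and triangle of a gene lie side by side except in genes below about 3 TPM.

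Gene sums of Rabs hardly differed between the genotypes. Of 55 Rab genes with enough counts for a test, 0 passed an adjusted p of 0.05 (quasi-likelihood test of edgeR, Benjamini-Hochberg over 18924 genes), against 0.0264% of all genes (5 genes). At an unadjusted p under 0.05 there were 2 Rab genes (3.64%), against 6.19% of all genes tested. Of these Rab31 was higher and Rab34 lower, against 3.59% and 2.6% of all genes. DESeq2's Wald test gave 0 Rab genes after adjustment and 2 before it, and limma-voom gave the same counts. Log2 fold changes were above 0 for 21 and below 0 for 34 Rab genes. Their median was -0.02, against 0.00 over all genes, and the median size was 0.0349, against 0.0668 over all genes. The precision was high for most members, with a median standard error of 0.0465. The 95% interval lay within 0.25 on the log2 scale, a 1.19-fold difference, for 44 of the 55 genes, within 0.5 for 51 and within 1 for 54. Rab20 was the exception. In the plot of log2 fold changes by role, the wide intervals belong to genes of low level such as Rab37, Rab38, Rab42 and Rab7b.

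**Figure D2:**
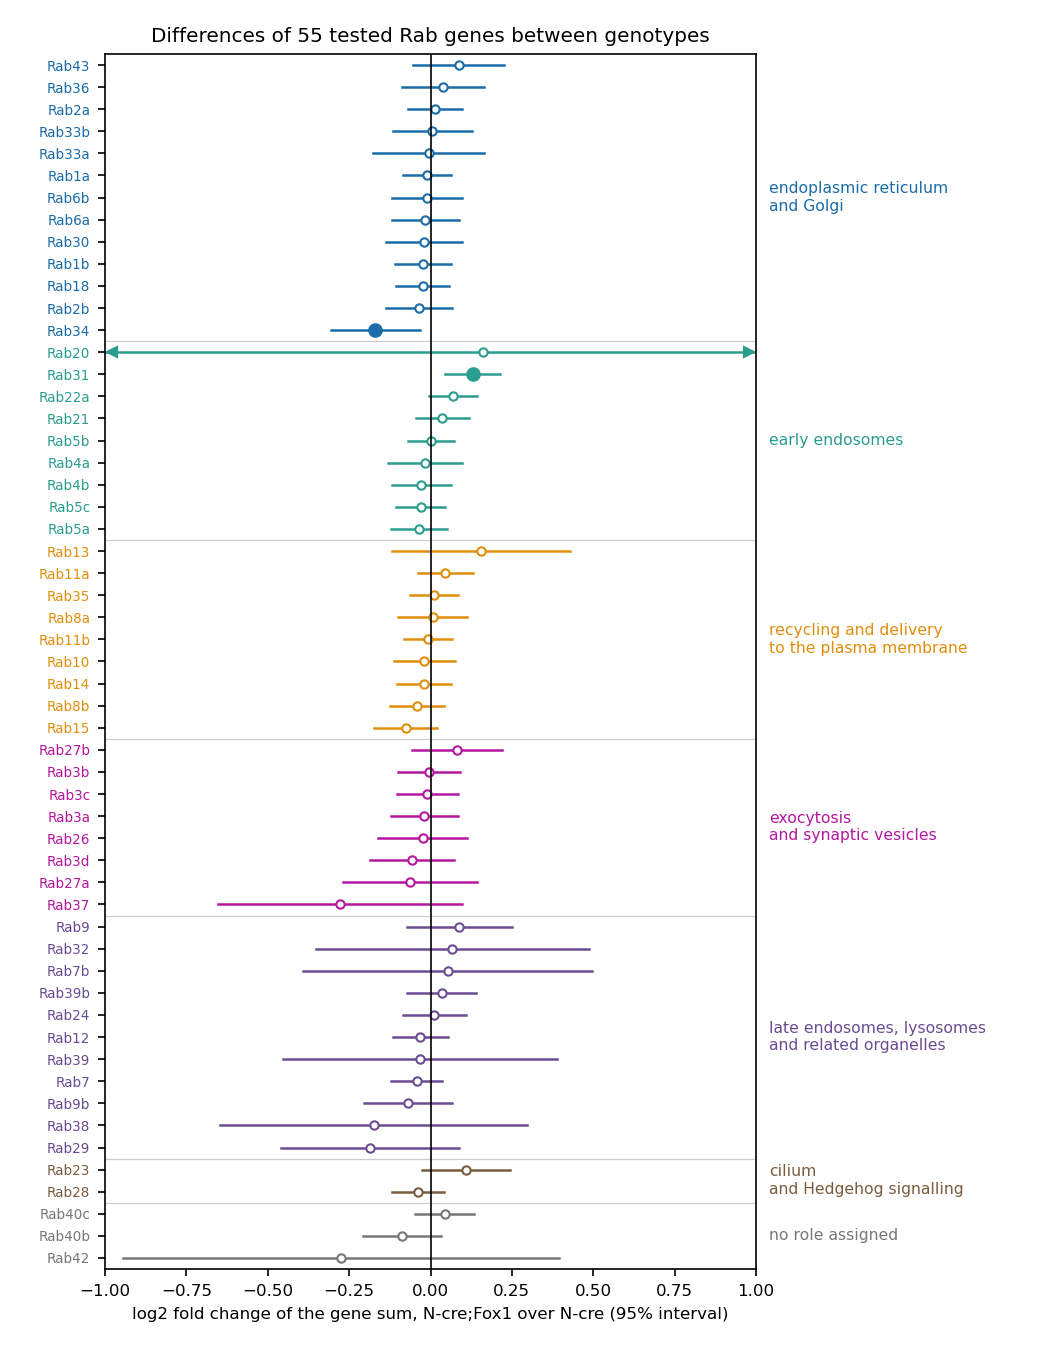
Log2 fold change of the gene sum, N-cre;Fox1 over N-cre (horizontal axis), with its 95% interval from edgeR for the 55 Rab genes tested, coloured by role; filled points mark an unadjusted p under 0.05. Only Rab31 and Rab34 are filled, and the interval of Rab20, which runs from -2.94 to 3.26, is drawn to the edges with arrowheads.

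Rab31 was the member with the smallest p. It is a relative of Rab22a that acts between the trans-Golgi network and early endosomes. Its normalized counts were 3343, 3188 and 3331 in the N-cre and 3739, 3570 and 3488 in the N-cre;Fox1 mice. All N-cre;Fox1 mice were above all N-cre mice, by a modest step. This is a log2 fold change of 0.13 (standard error 0.0380, unadjusted p = 0.00614, adjusted p = 0.678, edgeR). The summed astrocyte markers given above lay higher in the same 3 mice, and their part in the Rab31 difference was not tested. Without the 2 mice with high choroid plexus markers, the log2 fold change of Rab31 was 0.15.

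Rab34, which links the Golgi to lysosome position and takes part in the building of cilia, went the other way. Its normalized counts were 1084, 1117 and 1164 in N-cre and 1037, 1024 and 930 in N-cre;Fox1 mice, again without overlap. The fitted log2 fold change was -0.17 (standard error 0.0613, unadjusted p = 0.0194, adjusted p = 0.772, edgeR). Its main isoform Rab34-203 carried 66.8% ± 4.06 (SD, n = 3) of its counts in N-cre and 61.7% ± 8.48 in N-cre;Fox1 mice. Rab34-201, which starts at another first exon, stood at 319 normalized counts in N-cre;Fox1 2 and at 136 to 196 in the other 5 mice. N-cre;Fox1 2 is 1 of the 2 mice with high choroid plexus markers.

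Rab22a, a Rab of early endosomes that sorts cargo for recycling, was the only other tested member whose genotypes did not overlap. Normalized counts were 2837, 2828 and 2796 in N-cre and 2924, 2915 and 3033 in N-cre;Fox1 mice, with a log2 fold change of 0.07 and an unadjusted p of 0.0680 (edgeR). These 3 genes are 5.45% of the tested Rab genes, against 12.2% of all genes tested whose genotypes did not overlap. The 2 higher and 1 lower Rab genes stand against 6.06% and 6.11% of all genes.

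Rab20 was high in the same mice as the choroid plexus markers. This gene, which acts in endosomes and phagosomes, had normalized counts of 14.6, 27.2 and 83.7 in N-cre and 14.8, 106.5 and 13.5 in N-cre;Fox1 mice. Both high values belong to the libraries N-cre 3 and N-cre;Fox1 2, the same 2 libraries in which the choroid plexus marker Ttr stood at 111007 and 251900 normalized counts, against 274 to 672 elsewhere. The log2 fold change of Rab20 was 0.16 (standard error 1.16), and it was -0.53 without these 2 mice. Rab20 is a gene chosen after its values were seen.

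**Figure D3:**
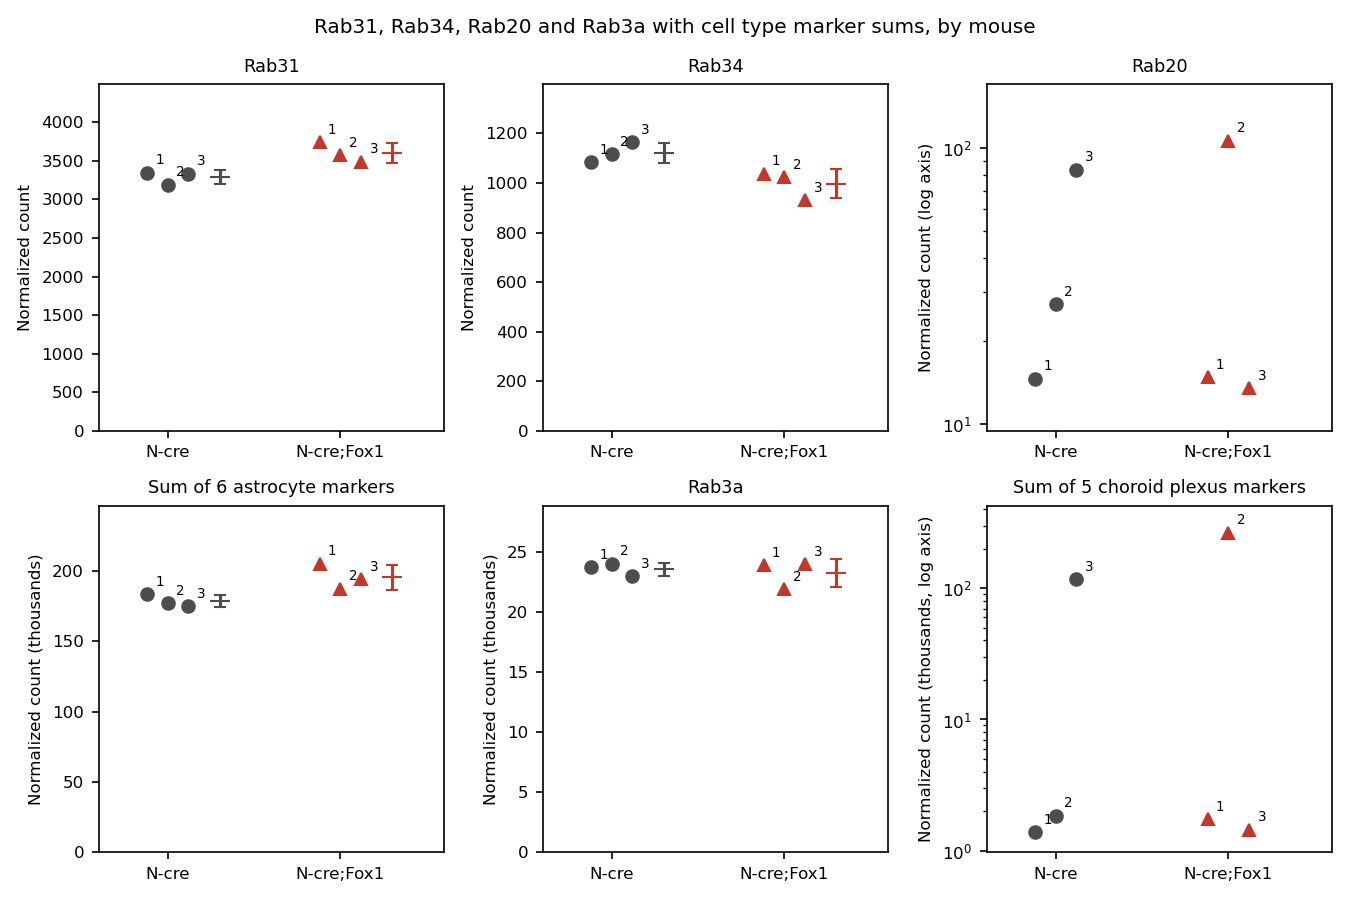
Normalized counts of Rab31, Rab34, Rab20 and Rab3a and summed counts of 6 astrocyte and 5 choroid plexus markers in each mouse (points numbered by replicate; circles N-cre, triangles N-cre;Fox1), with mean and SD over 3 mice beside the points on linear axes. Rab31 and the astrocyte sum are higher in all N-cre;Fox1 mice, Rab34 is lower, and Rab20 and the choroid plexus sum are high in N-cre 3 and N-cre;Fox1 2.

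The Rabs of transmitter release showed no called difference. Rab3a had normalized counts of 23691, 23992 and 22940 in N-cre and 23855, 21878 and 23957 in N-cre;Fox1 mice, with a log2 fold change of -0.02 and a 95% interval from -0.12 to 0.08. The interval for Rab3c ran from -0.10 to 0.08, that for Rab3b from -0.10 to 0.09 and that for Rab3d from -0.19 to 0.07. For Rab27a it ran from -0.27 to 0.14 and for Rab27b from -0.06 to 0.22. Across the 8 exocytic Rabs, 7 log2 fold changes were below 0 and 1 was above, with a median of -0.02 and an adjusted p of at least 0.860 (edgeR). In N-cre;Fox1 2, Rab3a and the summed neuronal markers (239122) were both the lowest of all mice. Camk2a alone gave 195040 of that sum. Fibcd1, Grik4, Neurod6 and Camk2a were lowest in this mouse, while Prox1, C1ql2, Wfs1 and Zbtb20 were not.

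In the other roles the log2 fold changes also lay on both sides of 0. Among 13 tested Rabs of the endoplasmic reticulum and Golgi, which include Rab1a, Rab1b and Rab2a, 4 log2 fold changes were above 0 and 9 below, with a median of -0.01. Among 9 of early endosomes, 5 were above and 4 below 0 (median 0.00). Among 9 of recycling and delivery to the plasma membrane, 4 were above and 5 below (median -0.01), and among 11 of late endosomes, lysosomes and related organelles, 5 were above and 6 below (median -0.03). Rab6b, Rab7, Rab11b, Rab5c, Rab28 and Rab40c, the highest of their roles, had log2 fold changes between -0.04 and 0.04. Rab23, a Rab that restrains Hedgehog signalling at the cilium, stood at 1387 to 1600 normalized counts in N-cre against 1560 to 1681 in N-cre;Fox1 mice, which overlap.

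Most Rab genes were read through 1 dominant isoform. Of the 55 tested genes, 35 had an isoform with over 90% of their counts and 54 one with over 50%, and the top isoform was annotated as coding in all 55. The exception below 50% was Rab40c, a Rab joined to a ubiquitin ligase, whose top isoform held 41.9%. Of 138 Rab isoforms tested one by one, 0 passed an adjusted p of 0.05 in edgeR's quasi-likelihood test, as did 0% of all 50556 isoforms. At an unadjusted p under 0.05 there were 5 Rab isoforms (3.62%), against 4.78% of all isoforms. Of these 4 were higher and 1 lower, against 2.62% and 2.17% of all isoforms. DESeq2 gave 7 and limma-voom 8 Rab isoforms before adjustment and 0 after it. In 16 Rab isoforms (11.6%) the genotypes did not overlap, against 11.5% of all isoforms, with 9 higher and 7 lower against 5.85% and 5.68%. A further test, edgeR's diffSpliceDGE, asked whether an isoform moved relative to the others of its gene. It covered 120 Rab isoforms and passed 0 after adjustment, against 0.217% of 42441 isoforms. Before adjustment it passed 4 Rab isoforms (3.33%), against 2.03%, with 2 higher and 2 lower against 1.16% and 0.874%.

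Rab11a held the isoform with the smallest p of the family. Its gene sum was 4472, 4479 and 4141 normalized counts in N-cre and 4577, 4442 and 4496 in N-cre;Fox1 mice (log2 fold change 0.05, 95% interval from -0.04 to 0.13). The main isoform Rab11a-208, which holds exon 4, stood at 4148, 4233 and 3781 against 4086, 4069 and 4049, with a log2 fold change of 0.00. The isoform without exon 4, Rab11a-201, stood at 88.6, 42.7 and 105.9 in N-cre and at 226.7, 158.5 and 199.8 in N-cre;Fox1 mice. All N-cre;Fox1 mice were above all N-cre mice. Its log2 fold change was 1.3 (standard error 0.348, unadjusted p = 0.00874, adjusted p = 0.944, edgeR), and the test of isoform use gave an unadjusted p of 0.0185.

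As a share of the counts of isoforms that span the exon, skipping of Rab11a exon 4 was 2.07%, 0.992% and 2.70% in N-cre and 5.20%, 3.72% and 4.66% in N-cre;Fox1 mice. The means were 1.92% ± 0.862 and 4.52% ± 0.749 (SD, n = 3), with p = 0.1 in the two-sided exact permutation test, the smallest value that 3 mice against 3 can give. This share was chosen because Rab11a-201 had an unadjusted p under 0.05 (edgeR) in the same mice. The permutation p is therefore not independent evidence. Rab11a-201 is annotated at 595 bases, much shorter than the 2336 bases of Rab11a-208, so shares scaled for length were higher, at 6.91% ± 2.95 and 15.3% ± 2.23. The annotation marks the end of Rab11a-201 as not found, so its true length is unknown and the scaled shares are uncertain. The skipped exon has a length divisible by 3. RSEM placed at least 36.0 read pairs per mouse on the skipping form and at least 3014 on both forms together.

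Another Rab11a isoform, Rab11a-209, retains an intron. It had 12, 0 and 0 normalized counts in N-cre and 37.4, 56.5 and 26 in N-cre;Fox1 mice. The fitted log2 fold change was 3.13 (standard error 1.2), the unadjusted p was 0.0401 for the isoform and 0.00116 for its use, and the adjusted p of its use was 0.303 (edgeR). That adjusted p was 0.00342 without N-cre 1, the only N-cre mouse with counts of this isoform. It held under 2% of the counts of Rab11a in each mouse. The study chose its list of changed isoforms on these same mice, and both minor Rab11a forms are on it, so their direction here is not independent evidence. The summed astrocyte markers separated the genotypes in the same direction, and their part in the Rab11a shares was not tested. Rab11a-206, a short coding form of 462 bases, lay lower in all N-cre;Fox1 mice (179.1 to 192.1 normalized counts in N-cre against 127.5 to 171.5 in N-cre;Fox1 mice, unadjusted p = 0.175, edgeR).

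**Figure D4:**
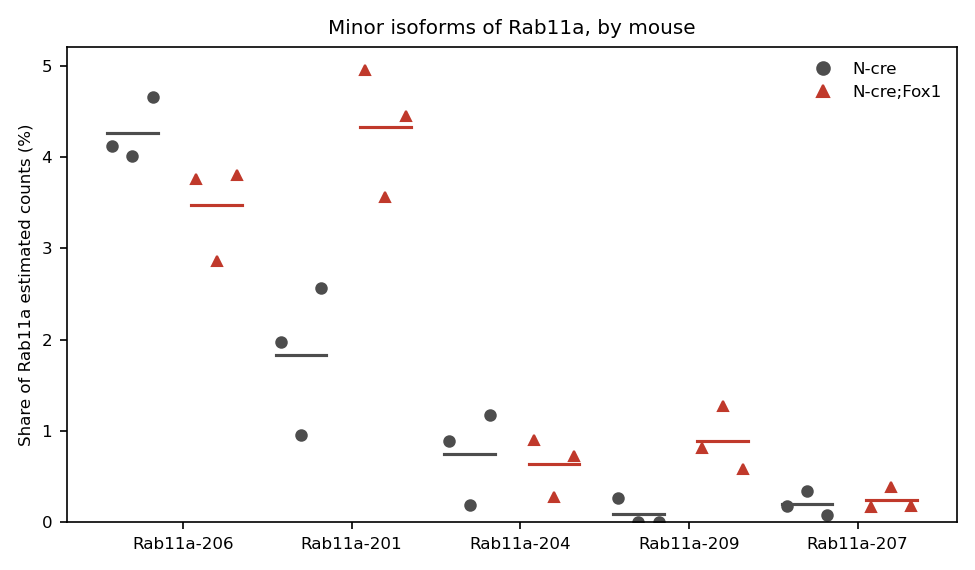
Share of the expected counts of Rab11a (vertical axis, %) on its 5 minor isoforms whose normalized count averaged 5 or more, in each mouse, with a line at the mean of each genotype; circles are N-cre and triangles N-cre;Fox1 mice. Rab11a-201 and Rab11a-209 are higher and Rab11a-206 is lower in all N-cre;Fox1 mice, while Rab11a-204 and Rab11a-207 overlap.

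The other Rab11 gene had a small isoform with the reverse order. Rab11b-202 stood at 77.4, 49.8 and 30.1 normalized counts in N-cre and at 5.91, 17.3 and 32.3 in N-cre;Fox1 mice, which overlap. The unadjusted p of its use was 0.0204 and the adjusted p 1.00 (edgeR). It held 0.400% of the counts of Rab11b, whose gene sum had a fitted log2 difference of -0.01 (95% interval from -0.08 to 0.07).

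In Rab22a, the isoform without exon 3 was high in 2 of 3 N-cre;Fox1 mice. The annotation marks this isoform for nonsense-mediated decay. Rab22a-203 had normalized counts of 120.4, 135.2 and 132.0 in N-cre and 137.0, 215.8 and 312.6 in N-cre;Fox1 mice. The lowest N-cre;Fox1 mouse lies next to the highest N-cre mouse. The fitted log2 fold change was 0.78 (standard error 0.299, unadjusted p = 0.0380, adjusted p = 0.99, edgeR), while the main isoform Rab22a-201 had a log2 fold change of 0.02. The test of isoform use gave Rab22a-203 an unadjusted p of 0.0907 (edgeR). Skipping of exon 3 was 4.23%, 4.80% and 4.72% in N-cre and 4.69%, 7.39% and 10.3% in N-cre;Fox1 mice, which overlap (two-sided exact permutation p = 0.3). N-cre;Fox1 2 and 3 are also the mice in which 8 genes of neuronal activity summed highest, to 37118 and 41023 normalized counts against 22555 to 25358 in the other 4 mice, and the part of this in the Rab22a share was not tested.

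Rab28, a distant member of the family with a role at the base of cilia, is known for forms that differ in their C-terminal end. Inclusion of its exon of 95 bases was 11.4%, 10.3% and 11.1% in N-cre and 12.8%, 13.5% and 12.8% in N-cre;Fox1 mice. The means were 10.9% ± 0.581 and 13% ± 0.393 (SD, n = 3), a difference of 2.08 percentage points, without overlap and with the smallest exact permutation p possible (0.1, two-sided). Neither Rab28-203, which holds the exon (log2 fold change 0.20, unadjusted p = 0.0967), nor Rab28-201, which does not (-0.07, unadjusted p = 0.113), passed edgeR's test. In the test of isoform use their unadjusted p was 0.495 and 0.817 (edgeR). Rab28-202, a form with a retained intron, stood at under 16 normalized counts in every mouse. Its use was lower in N-cre;Fox1 mice, with an unadjusted p of 0.0245 (edgeR). The adjusted p of its use was 0.0380 without both mice with high choroid plexus markers (edgeR). The shares of Rab28 and Rab6a were looked at after their values were seen.

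Rab4b, a Rab of fast recycling from early endosomes, has a minor form that retains its second intron (chr7:27175894-27176157, minus strand, 264 bases). Retention was 10.6%, 10.6% and 14.8% in N-cre and 9.62%, 10.2% and 7.72% in N-cre;Fox1 mice, and the exact permutation p was 0.1 (two-sided). This p is not independent evidence, since the share was chosen by the unadjusted p of Rab4b-205 in the same mice. The genotypes did not overlap, but the highest N-cre;Fox1 and the lowest N-cre mice lie side by side. The isoform with the intron, Rab4b-205, had normalized counts of 288.2, 271.6 and 367.3 against 246.4, 251.4 and 199.8, with a log2 fold change of -0.41 (unadjusted p = 0.0466, adjusted p = 0.99, edgeR). The spliced isoform Rab4b-201 had a log2 fold change of 0.01. For the use of Rab4b-205 the unadjusted p was 0.293 (edgeR). Without the 2 mice with high choroid plexus markers, the difference in retention was -1.93 percentage points in place of -2.83, and without N-cre 3 alone it was -1.43. Rab4b shares 49.3% of its stretches of 100 bases with Gm21983, a gene model that overlaps it, so its counts are uncertain, although RSEM placed only 0 to 9 read pairs on Gm21983.

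For the exon pair of Rab6a the genotypes overlapped. The upstream exon was used in 8.10%, 6.85% and 8.03% of the counts in N-cre and in 7.13%, 8.90% and 7.40% in N-cre;Fox1 mice, with means of 7.66% ± 0.701 and 7.81% ± 0.950 (SD, n = 3, two-sided exact permutation p = 0.9). On this scale the downstream exon made up over 90% of Rab6a in every mouse, while with counts scaled for length the upstream exon reached 10.5% in N-cre;Fox1 2. This pair gives the proteins known as Rab6A and Rab6A′. RSEM placed at least 1415 read pairs per mouse on isoforms with the upstream exon, the most on the minor form of any splice choice described here. These pairs are counted over whole isoforms, not on the exon alone.

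**Figure D5:**
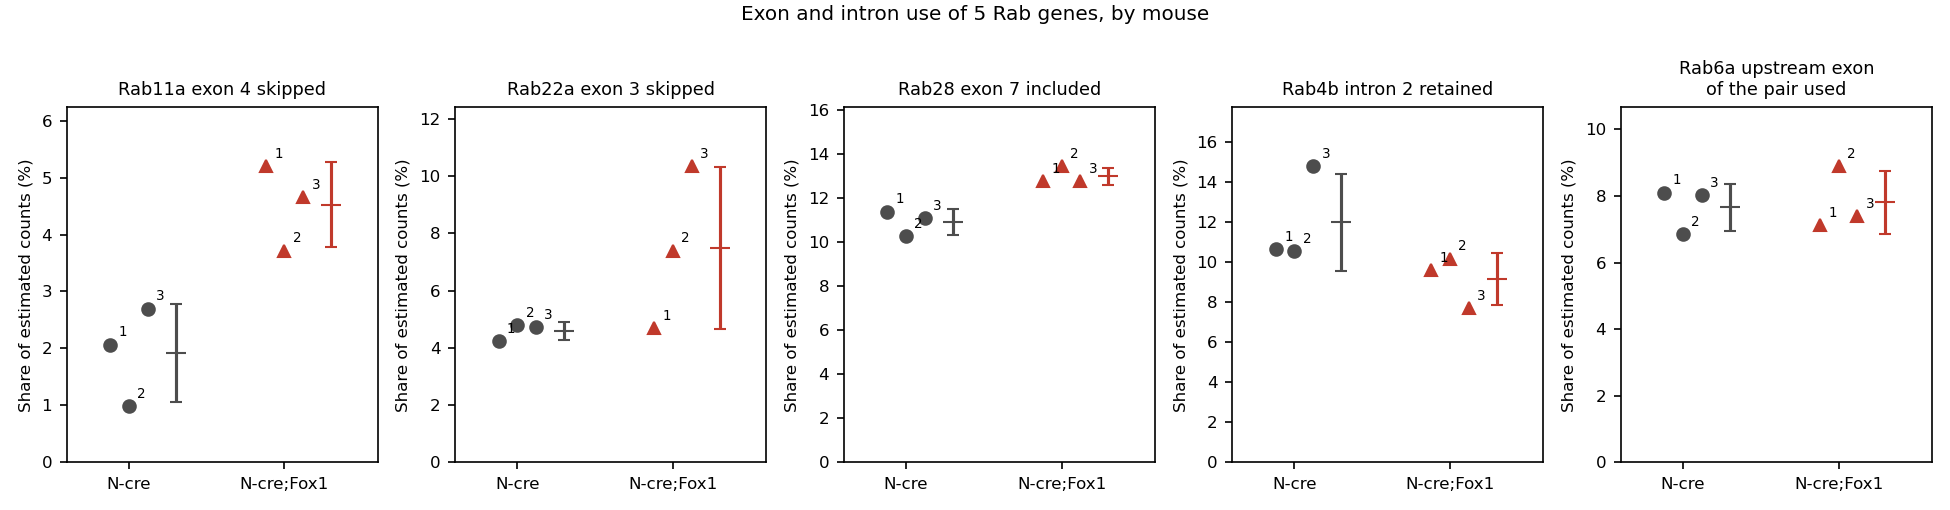
Share of estimated counts (vertical axis, %, each panel from 0) with the named exon or intron choice in 5 Rab genes, in each mouse (points numbered by replicate; circles N-cre, triangles N-cre;Fox1), with mean and SD over 3 mice beside the points. The genotypes are apart for Rab11a, Rab28 and Rab4b and overlap for Rab22a and Rab6a. These 5 genes were picked on values of the same mice, so the number apart is not a rate. In the counts of all isoforms tested, the genotypes did not overlap for 11.6% of Rab isoforms and 11.5% of all.

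Few regulators and partners of Rabs had a small p. Of 125 tested genes on lists of GEFs, GAPs, prenylation and extraction factors, effectors and kinases, 0 passed an adjusted p of 0.05 and 6 had an unadjusted p under 0.05 (4.80%, against 6.19% of all genes). Of these, 3 were higher and 3 lower, against 3.59% and 2.6% of all genes. The median log2 fold change over the lists was 0.00. Dennd6b, of the DENN family of Rab GEFs, had the smallest p. Its normalized counts were 4566, 4532 and 4392 in N-cre and 4130, 4031 and 4125 in N-cre;Fox1 mice, without overlap (log2 fold change -0.14, standard error 0.0323, unadjusted p = 0.00172, adjusted p = 0.564, edgeR). Of 37 GEFs, 2 were lower at an unadjusted p under 0.05 and 0 higher. Of 34 GAPs, 1 was higher, and of 43 effectors, 2 were higher. Of 8 prenylation and extraction factors, 1 was lower, and of 3 kinases and phosphatases, 0 had such a p. These small counts per list were not tested against the shares of all genes.

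The motif that Rbfox proteins bind was found at about the same share in Rab transcripts as elsewhere. TGCATG, searched on the transcript strand in the last 1000 bases of the main coding isoform, was found in 13 of 54 Rab genes with such a window (24.1%), against 26.7% of 13645 genes. Its core GCATG, which TGCATG contains, was found in 53.7% of the Rab genes and 60.0% of all. The median log2 fold change was -0.01 for the 13 Rab genes with TGCATG and -0.02 for the 41 without it. Introns, where splicing factors also bind, were not searched.

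Closely related Rabs could be told apart in these counts. Within 15 pairs of near relatives the coding sequences were 67.3% to 78.4% identical, and the longest stretch shared was 38 bases, in Rab1a and Rab1b, which is shorter than a read. The relatives differed widely in level, as in Rab3a over Rab3d (64.5-fold in TPM) and Rab2a over Rab2b (9.10-fold), or little, as in Rab5b over Rab5c (0.958-fold). Of the 55 tested genes, 42 had no stretch of 100 bases in common with a transcript of another symbol. The share was above 5% in 5 genes, and above 10% in Rab43 (73.8%, with Gm45140) and Rab4b. The 59 genes lie on 18 chromosomes, with at most 7 on one and 4 on the X chromosome.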

How the data were processed

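RNA-seq of hippocampi from 3 N-cre and 3 N-cre;Fox1 mice was analysed. Stranded total RNA libraries were sequenced. The authors used Cutadapt 1.18 for trimming, STAR 2.5.2b for mapping to mm10 and RSEM 1.3.0 for counts of GENCODE isoforms. The deposited values are RSEM expected counts per isoform, neither normalized nor filtered. The authors' fold changes and p-values were not used, and their list of changed isoforms served only to see which Rab isoforms it names. RSEM divides reads shared by isoforms between them, so minor isoforms carry an estimation error that the tests do not see.

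Expected counts were summed by gene symbol and rounded. Genes and isoforms with low counts were removed with filterByExpr (minimum count 10, minimum total 15), and edgeR 4.0.16, run in R 4.3.3, compared the genotypes (TMM, robust quasi-likelihood test, genotype as the only term, Benjamini-Hochberg adjustment over all features tested, threshold 0.05). Isoform use was tested with diffSpliceDGE and shares with exact permutation tests over mice. TPM came from lengths in a later GENCODE annotation of the same genome, in which 228 of the 238 Rab isoforms have the same version. No other replicate information than separate mice was given in the labels. The fits were tested on simulated data.

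Alternatives were DESeq2 1.42.0 size factors and Wald test, limma-voom (limma 3.58.1), other filters, unrounded counts, the replicate number as a block, a term for mice with Xist counts above 1000, length-scaled shares, CPM, and each mouse left out. Leaving out both mice with high choroid plexus markers was added after seeing the data. The members, roles and lists were chosen with earlier results of these data known. Named with values were Rab genes with an unadjusted p under 0.05, the highest Rab of each role, Rab3a to Rab3d, Rab27a, Rab27b, Rab11a, Rab11b, Rab isoforms averaging 50 or more normalized counts at an unadjusted p under 0.05 with the other main isoform of their gene, and list genes with an unadjusted p under 0.01. All others were chosen after their values were seen. Depth was 40463587 to 62141336 expected counts per mouse, and counting error was not separated from the spread between mice.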

Additional observations from a re-analysis of the deposited data

How the results depend on the processing

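The counts of 0 Rab genes and 0 Rab isoforms past an adjusted p of 0.05 were also 0 under each of 14 and 15 alternatives. With the replicate number as a block both counts and that of isoform use were 0, with 2 Rab genes and 6 Rab isoforms at an unadjusted p under 0.05. Deviations of mice with the same number correlated at 0.365, -0.0819 and -0.190. The largest correlation, 0.415, was between N-cre 3 and N-cre;Fox1 2, the libraries with high choroid plexus markers. Xist counts were above 1000 only in replicate 1 of each genotype. So few correlations, on both sides of 0, cannot decide whether the numbers pair the mice. For isoform use the count was 0 to 1 with each mouse left out and 1 without the mice with high choroid plexus markers, an alternative added after seeing the data. The single isoforms were Rab11a-209 without N-cre 1 (adjusted p = 0.00342, edgeR) and Rab28-202 without the high choroid plexus mice (adjusted p = 0.0380). Over all features, calls at an adjusted p of 0.05 numbered 5 genes and 0 isoforms in edgeR, 50 and 215 in DESeq2, and 45 and 10 with no filter beyond 1 count. They numbered 6 isoforms with at least 10 counts in every mouse, a filter that removes Rab11a-209. Rab counts at an unadjusted p ran from 1 to 3 for genes, 2 to 8 for isoforms and 2 to 7 for isoform use.

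Rab31 kept its direction in all alternatives (log2 fold change 0.11 to 0.15, adjusted p 0.301 to 1.00), as did Rab34 (-0.19 to -0.12, adjusted p 0.42 to 1.00), Rab11a-201 (1.00 to 1.69, adjusted p 0.12 to 1.00), Rab22a-203 (0.45 to 1.03) and Rab4b-205 (-0.49 to -0.27). Unadjusted p stayed under 0.05 in 9 of 16 settings for Rab22a-203 (lost in limma-voom, without the high choroid plexus mice and without each mouse but N-cre;Fox1 1) and in 8 of 16 for Rab4b-205 (lost with the block, with the Xist term, without the high choroid plexus mice and without each mouse but N-cre 2). For Rab34 it did so in 11 of 15, with p of 0.0531, 0.0857 and 0.0956 without N-cre 2, N-cre 3 and N-cre;Fox1 3, and 0.0735 without the high choroid plexus mice (edgeR).

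Signs changed in genes near 0. Without the high choroid plexus mice, log2 fold changes were 0.0083 for Rab6b, 0.0059 for Rab3a, 0.0056 for Rab11b, -0.53 for Rab20, -0.0432 for Rab11a-208 and -0.0198 for Rab4b-201, and the Rab6a share differed by -0.209 percentage points. Without a filter that of Rab3b was 0.0011. That of Rab20 was -0.0722 in limma-voom and -0.12 with the block. With each mouse left out the ranges were -0.0316 to 0.0293 for Rab6b, -0.0419 to 0.0226 for Rab3a, -0.0158 to 0.0111 for Rab11b, -0.0220 to 0.0265 for Rab3b, -0.0333 to 0.0199 for Rab3c, -1.51 to 1.14 for Rab20, -0.0421 to 0.0370 for Rab11a-208, -0.0427 to 0.0548 for Rab4b-201, and -0.393 to 0.489 percentage points for the Rab6a share. The cause was not tested. On the CPM scale, with no scaling for length, the 10 highest Rabs held 63.2% of the Rab counts, and the order changed. Rab6b led (903 CPM), Rab3a (441) stood below Rab6a (456), Rab3c (343) was above Rab7 (271), Rab5b (173) was above Rab5c (110), and Rab15 and Rab14 were above Rab11b.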

Other observations

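Noncoding isoforms, here all isoforms annotated as other than protein coding, took a large share of a few Rab genes in both genotypes. They include forms with a retained intron and forms marked for nonsense-mediated decay. The libraries were made from total RNA, and unspliced RNA was not told apart from retained introns. Their share in Rab40c was 38.8% ± 6.84 (SD, n = 3) in N-cre and 34.0% ± 12.6 in N-cre;Fox1 mice. In Rab26, a Rab linked to autophagy of synaptic vesicles, it was 37.2% ± 3.32 and 34.7% ± 1.27. It averaged 25.5% over 6 mice in Rab23 and 23.8% in Rab24, a Rab linked to autophagosomes, and the genotypes overlapped in each of these 4 genes. They did not overlap in Rab11a (mean 0.0888% in N-cre and 0.891% in N-cre;Fox1 mice), Rab4b (15.1% and 12.6%) and Rab12 (1.79% and 1.38%). How often such shares lie apart over all genes was not computed. Rab6b and Rab7 had 0% of their counts on noncoding isoforms, and Rab3a had 0.277%.

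The counts of Rab3b fell in nearly equal parts on Rab3b-201 (54.7% of its counts) and Rab3b-202 (45% of its counts), annotated at 1053 and 3327 bases. These shares are not scaled for length, and per length the shorter Rab3b-201 would hold the larger part. The normalized counts of both forms overlapped between the genotypes.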
